A study of Mus musculus with 32 samples.

Results

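The genes described here encode the core of the JAK-STAT pathway: the Janus kinases Jak1, Jak2, Jak3 and Tyk2, the transcription factors Stat3, Stat4 and Stat6, and the feedback inhibitors Socs1, Socs3 and Cish. Each was taken by its symbol in the platform annotation, with the highest-mean row standing for the gene. Of the 10 listed genes, 9 were measured, each by 1 row, out of 19505 genes with a symbol. Jak3 was not matched to a row and is not analysed here. The 32 arrays hold punches of dorsal skin (called back skin here) or ear from NC/Nga mice, a strain known for developing dermatitis. The labels say of the HDM-treated mice that they were kept under SPF conditions. In both tissues 8 mice were labelled sham and 8 HDM treated, an abbreviation that the labels do not spell out. The labels give no age, dose or duration, and do not describe the sham treatment. All RNA came from 8 mm punches of whole tissue, so each level is an average over all the cells of a punch.

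Cytokine receptors without kinase activity of their own carry JAK proteins on their inner tails. A bound cytokine brings the kinases together, they phosphorylate the receptor, and STAT proteins dock there, are phosphorylated and move to the nucleus as dimers. SOCS and CISH proteins are made in response and shut the signal off, by blocking the kinases or the docking sites. In skin, IL-4 and IL-13 signal mainly through STAT6, IL-22, IL-6 and oncostatin M through STAT3, and inhibitors of the kinases are used to treat atopic dermatitis.

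More of the 9 genes passed the test between HDM and sham mice in ear than in back skin. Of the 9 measured genes, 5 passed in ear, where 31.9% of all rows passed: Jak2, Stat3, Socs1 and Socs3 rose (16.4% of rows rose) and Tyk2 fell (15.5% fell). In back skin 0 of 9 passed with limma, against 14.7% of all rows (6.18% rose and 8.56% fell), and 2 of 9, Tyk2 and Cish, had an unadjusted p under 0.05, as did 27.2% of all rows. The median difference of the 9 genes was 0.73 in ear and 0.20 in back skin on the log2 scale, where the medians of all rows were -0.02 and 0.01. A row passed where limma gave it an adjusted p under 0.05 (Benjamini-Hochberg, 22206 rows), and a difference is given in log2 units ± its standard error from 8 against 8 mice.

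Some arrays stood apart. In sham back skin, mice 1 and 2 had the highest levels of the group for Jak1, Jak2, Stat3, Stat6, Socs1, Socs3 and Cish, and their hair follicle markers averaged 7.80 and 11.51, below the other 6 mice, at 12.81 to 14.97. Their neutrophil markers averaged 8.66 and 8.80, above the other 6 mice. Their macrophage markers averaged 10.59 and 10.49, with mouse 7 close to them at 10.38. The differences of the measured members in back skin are therefore given with and without mice 1 and 2. Leaving out the highest sham levels of a member raises its HDM minus sham difference by construction. A pass gained only in that way is thus no separate support. The punches carried the markers of skin: keratinocyte markers averaged 15.08 to 17.74 and fibroblast markers 14.99 to 16.94 over all arrays. Of 5 cartilage markers, Col2a1 and Matn1 were below background on every ear array. The other 3 were above it on 4 or more arrays of either ear group. All 5 together averaged 7.97 to 8.37 in sham ear and 6.70 to 7.84 in HDM ear, and 3 of the 5 fell in ear. In sham back skin they averaged 5.29 to 6.01. The background of an array is the median of its negative control rows, between 4.43 and 5.38. All 4 B cell markers measured were below background on every array, and of 6 natural killer cell markers none was above it on 4 or more arrays of a group.

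Markers of infiltrating cells moved with HDM as well. Of all rows, 16.4% rose and 15.5% fell in ear, and 6.18% rose and 8.56% fell in back skin. All 9 measured macrophage markers rose in ear and 0 of 9 passed in back skin. Their mean level was 8.15 to 8.62 in sham ear, 9.73 to 12.32 in HDM ear, 8.80 to 10.59 in sham back skin and 9.78 to 10.32 in HDM back skin. Within sham back skin, mice 1, 2 and 7 averaged 10.59, 10.49 and 10.38. The other sham back mice, at 8.80 to 9.51, lay below every HDM back array. Of 9 neutrophil markers, 7 rose and 1 fell at either site, with mean levels of 4.42 to 5.71 in sham ear, 9.19 to 13.51 in HDM ear, 5.74 to 8.80 in sham back skin and 10.26 to 11.15 in HDM back skin. Of 8 T cell markers, 3 rose in ear and 2 in back skin, with mean levels of 5.95 to 6.43 in sham ear, 6.03 to 8.20 in HDM ear, 5.42 to 6.75 in sham back skin and 6.33 to 7.45 in HDM back skin. Of 8 dendritic and Langerhans cell markers, 5 fell and 1 rose in back skin and 0 passed in ear. Their mean levels were 7.05 to 8.96 in sham and 6.50 to 6.90 in HDM back skin. Of 8 mast cell markers, 5 rose in ear, and 1 rose and 3 fell in back skin. In back skin 3 of 5 adipocyte markers fell. All 7 skeletal muscle and all 5 adipocyte markers fell in ear, the first from a mean level of 11.97 to 13.90 in sham ear to 9.05 to 11.30 in HDM ear. Mrc1 and Csf3r, which count among these macrophage and neutrophil markers, also stand in the lists of pathway genes below. In whole punches, more cells of a type and more RNA per cell cannot be told apart, and the part of these cells in the results below was not tested.

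**Figure D1:**
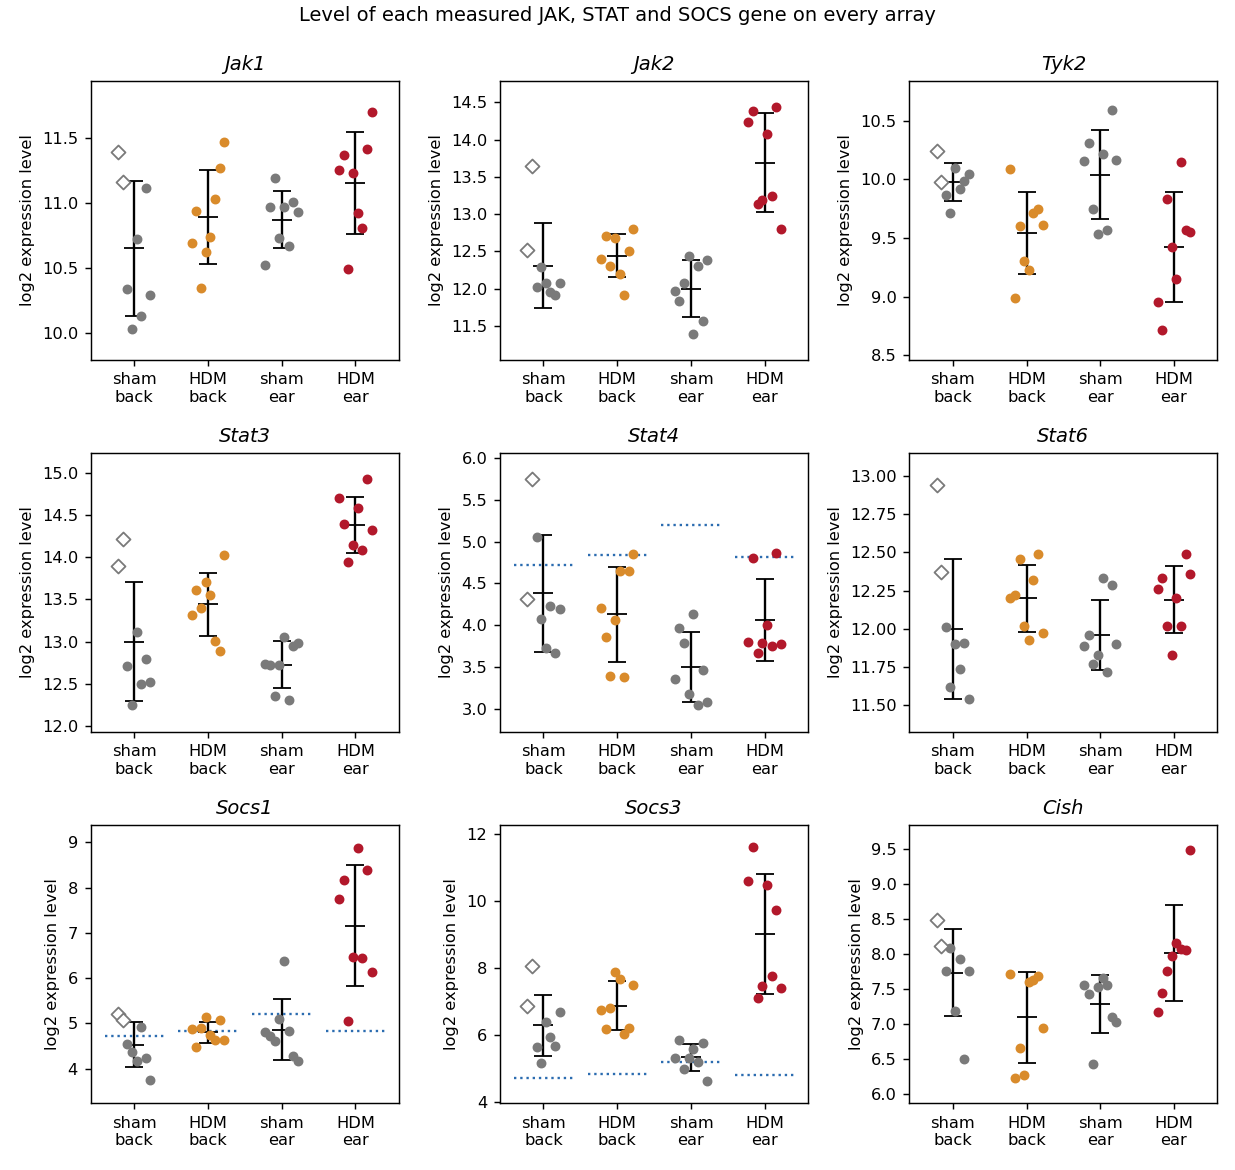
Log2 expression level (vertical axes) of the 9 measured genes on every array by group, with points for mice, bars for mean and SD (n = 8), open diamonds for sham back mice 1 and 2, and dotted lines for the mean background of a group where it falls inside a panel. Vertical axes differ between panels and do not start at 0. Jak2, Stat3 and Socs3 lie higher on all 8 HDM ear arrays than on any sham ear array.

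Among the kinases, Jak2, which serves the receptors for interferon gamma, the IL-3 family and many hormones, was the one that rose. Its lowest, median and highest levels were 11.39, 12.02 and 12.44 in sham ear and 12.80, 13.66 and 14.44 in HDM ear. In back skin the same levels were 11.92, 12.07 and 13.64 in sham and 11.92, 12.46 and 12.80 in HDM mice. Every HDM ear thus lay above every sham ear, while the back skin groups overlapped, with sham mouse 2 the highest of both. Jak2 rose in ear by 1.69 ± 0.24 (3.23-fold, adjusted p = 2.19e-06) and differed in back skin by 0.13 ± 0.24 (adjusted p = 0.791), or by 0.38 (adjusted p = 0.286) without sham mice 1 and 2. The effect was larger in ear than in back skin by 1.56 ± 0.34 (adjusted p = 0.00309). With Stat3 and Socs3, Jak2 was 1 of 3 measured members whose ear groups did not overlap and lay higher in HDM, as did 4.99% of all rows.

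Tyk2, the kinase of the type I interferon, IL-12 and IL-23 receptors, was the member that fell. Its lowest, median and highest levels were 9.53, 10.16 and 10.59 in sham ear and 8.71, 9.48 and 10.15 in HDM ear. In back skin they were 9.71, 9.98 and 10.24 in sham and 8.99, 9.61 and 10.09 in HDM mice. The groups overlapped at either site, and 7 of 8 HDM mice lay below the sham mean in ear and 7 of 8 in back skin. Tyk2 fell in ear by 0.62 ± 0.18 on the log2 scale (adjusted p = 0.00662), and its difference in back skin was -0.45 ± 0.18 (adjusted p = 0.0884), which passed when the back skin arrays alone were fitted (adjusted p = 0.0377). Without sham mice 1 and 2 it was -0.41 (adjusted p = 0.18). The difference of effects between sites was -0.17 ± 0.25 (adjusted p = 0.727), with a 95% interval from -0.69 to 0.34.

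Jak1, which pairs with the other kinases on most cytokine receptors, did not pass in ear or back skin. Its level ran from 10.52 to 11.19 in sham ear, from 10.49 to 11.70 in HDM ear, from 10.03 to 11.39 in sham back skin and from 10.35 to 11.47 in HDM back skin. All 4 groups overlapped. The difference was 0.27 ± 0.19 in ear (adjusted p = 0.311) and 0.24 ± 0.19 in back skin (adjusted p = 0.45), with 95% intervals from -0.12 to 0.66 and from -0.15 to 0.63. Without sham mice 1 and 2 the back skin difference was 0.45 (adjusted p = 0.108).

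Of the transcription factors, Stat3, which carries the signals of the IL-6, IL-10 and IL-22 families, rose in ear. Its lowest, median and highest levels were 12.31, 12.73 and 13.06 in sham ear and 13.94, 14.36 and 14.92 in HDM ear. In back skin they were 12.25, 12.76 and 14.22 in sham and 12.89, 13.48 and 14.03 in HDM mice. The ear groups stood well apart, with a narrow spread in each. In back skin, sham mice 1 and 2, at 13.89 and 14.22, lay inside or above the HDM range, and the other 6 sham mice reached 13.12 at most.

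Stat3 rose in ear by 1.65 ± 0.22 (3.14-fold, adjusted p = 9.00e-07). In back skin the difference was 0.44 ± 0.22 (adjusted p = 0.195) with all mice. It was 0.61 ± 0.20 (adjusted p = 0.034) without sham mouse 2 and 0.79 ± 0.18 (adjusted p = 0.00242) without sham mice 1 and 2, when 14.0% of all rows passed. These mice had the highest sham levels of Stat3, so leaving them out raises the difference by construction. The effect was larger in ear by 1.21 ± 0.31 (adjusted p = 0.0107), or by 0.86 (adjusted p = 0.0228) without those 2 mice.

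Stat6, the factor of IL-4 and IL-13, did not pass at either site with all mice. Its lowest, median and highest levels were 11.72, 11.89 and 12.33 in sham ear, 11.83, 12.23 and 12.49 in HDM ear, 11.54, 11.91 and 12.94 in sham back skin and 11.93, 12.21 and 12.49 in HDM back skin. All 4 groups overlapped, with sham back mouse 1 the highest array. The differences were 0.23 ± 0.15 in ear (adjusted p = 0.287) and 0.20 ± 0.15 in back skin (adjusted p = 0.436), and the 95% intervals ended at 0.54 and 0.51. Without sham mice 1 and 2, which had the highest sham levels of Stat6, the back skin difference was 0.41 ± 0.13 (adjusted p = 0.0273). Stat4, the factor of IL-12, was near or under background in all groups: 2 of 8 sham back, 3 of 8 HDM back, 0 of 8 sham ear and 1 of 8 HDM ear arrays were above it, with levels from 3.04 to 5.75. No change in Stat4 can be read at such levels; its back skin difference was -0.25 ± 0.27 (adjusted p = 0.606), and -0.03 (adjusted p = 0.961) without sham mice 1 and 2.

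SOCS genes are known as targets of STAT factors, and sequence near their annotated starts is shown beside the measured changes. Binding of a factor was not measured. The searched motifs were TTCNNNGAA, the element bound by most STAT dimers, the wider form preferred by STAT6, which is TTC and GAA with 4 bases between them, and a core of the element bound by interferon regulatory factors, which is GAAA repeated with 2 bases between. All were sought on both strands in 300 bases, from 250 before to 50 after the annotated start. Of 32851 RefSeq promoter windows (GRCm38.p6), 8.30% held the first motif, 6.95% the second and 3.44% the third. All 10 listed genes had a window. Below, the 250 bases before the start of Socs3 (chr11:117969367-117969616, minus strand) and Socs1 (chr16:10785537-10785786, minus strand) and the first 20 bases of the Cish transcript (chr9:107296659-107296678, plus strand) run 5′ to 3′, with motif matches in capitals.
Socs3: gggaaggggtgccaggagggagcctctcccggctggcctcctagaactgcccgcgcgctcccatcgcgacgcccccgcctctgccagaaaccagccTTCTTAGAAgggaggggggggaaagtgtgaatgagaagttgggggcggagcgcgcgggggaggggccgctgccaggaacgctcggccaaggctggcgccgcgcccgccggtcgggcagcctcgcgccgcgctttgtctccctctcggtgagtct
Socs1: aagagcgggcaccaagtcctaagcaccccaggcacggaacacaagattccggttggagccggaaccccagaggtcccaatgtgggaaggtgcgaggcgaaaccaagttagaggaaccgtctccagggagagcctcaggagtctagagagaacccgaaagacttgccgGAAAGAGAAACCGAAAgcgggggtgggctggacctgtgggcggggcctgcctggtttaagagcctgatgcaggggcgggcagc
Cish: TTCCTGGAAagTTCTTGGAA

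Socs3 held 1 match to TTCNNNGAA, TTCTTAGAA, which begins 154 bases before the start. Cish held 2, TTCCTGGAA at base 1 and TTCTTGGAA at base 12 of the annotated transcript. Socs1 held neither STAT motif but 2 overlapping matches to the repeated GAAA, GAAAGAGAAA and GAAACCGAAA, which begin 83 and 77 bases before the start. Among the other listed genes, 1 of the 2 windows of Stat4 held GAAAGTGAAA, and the windows of Jak1, Jak2, Jak3, Tyk2, Stat3 and Stat6 held none of the 3 motifs. A match describes the letters only.

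Socs3, whose product blocks JAK kinases bound to gp130-type receptors, had the largest difference of the 9 genes in ear. In HDM ear its levels in mice 1 to 8 were 10.59, 11.61, 7.11, 7.46, 10.48, 7.76, 9.74 and 7.40. In sham ear they were 5.32, 5.86, 5.00, 5.33, 5.60, 5.19, 5.77 and 4.63, with 5 of 8 arrays above background. All 8 HDM ears lay above all sham ears, and mice 1, 2, 5 and 7 had the 4 highest levels, from 9.74 upward, while the other 4 mice reached 7.76 at most. In back skin the lowest, median and highest levels were 5.18, 6.16 and 8.06 in sham and 6.04, 6.78 and 7.87 in HDM mice, which overlapped.

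In ear, Socs3 rose by 3.68 ± 0.51 (12.8-fold, adjusted p = 1.48e-06). The rise was 3.56 when each value below background was set to the background. In back skin the difference was 0.58 ± 0.51 (adjusted p = 0.508), and 0.96 (adjusted p = 0.247) without sham mice 1 and 2. The effect was larger in ear by 3.10 ± 0.72 (adjusted p = 0.00503). The standard error uses a spread shared by all groups, while the SD of Socs3 was 1.78 in HDM ear and 0.41 in sham ear. With the ear arrays fitted alone, the error was 0.58 and the adjusted p = 1.45e-04. From highest to lowest the group means were 9.02 in HDM ear, 6.88 in HDM back skin, 6.30 in sham back skin and 5.34 in sham ear. HDM ear stood above HDM back skin by 2.14 ± 0.51 (adjusted p = 0.00149). The means of sham back skin and sham ear did not differ by the test (-0.97 ± 0.51, adjusted p = 0.162), although the difference passed when sham arrays alone were fitted (adjusted p = 0.0286).

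Socs1, which restrains interferon and IL-4 receptor signalling, was near background in 3 of the groups. It was above background on 2 of 8 sham ear, 3 of 8 sham back and 4 of 8 HDM back arrays, and on 8 of 8 in HDM ear. In HDM ear the levels in mice 1 to 8 were 7.74, 8.16, 5.05, 6.46, 8.88, 6.45, 8.38 and 6.13. Sham ears ran from 4.17 to 6.38, with a median of 4.76, sham back skin from 3.74 to 5.20 and HDM back skin from 4.47 to 5.14. Again mice 1, 2, 5 and 7 were the 4 highest HDM ears, and 6 of 8 lay above the highest sham ear, that of mouse 5.

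The rise of Socs1 in ear was 2.29 ± 0.38 (4.91-fold, adjusted p = 1.59e-05), and 1.82 when each value below background was set to the background. In back skin the difference was 0.28 ± 0.38 (adjusted p = 0.694), and 0.48 (adjusted p = 0.495) without sham mice 1 and 2. The effect was larger in ear by 2.02 ± 0.53 (adjusted p = 0.0127).

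Cish, an inhibitor known as a target of STAT5, passed at neither site on its own, with differences of opposite sign. Its lowest, median and highest levels were 6.42, 7.47 and 7.66 in sham ear and 7.17, 8.01 and 9.49 in HDM ear. In back skin they were 6.50, 7.84 and 8.49 in sham and 6.22, 7.27 and 7.71 in HDM mice. The groups overlapped at either site. HDM mice lay above the sham mean in 7 of 8 ears and below it in 8 of 8 back skins.

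The difference of Cish was 0.73 ± 0.29 in ear (adjusted p = 0.0514) and -0.64 ± 0.29 in back skin (adjusted p = 0.142), or -0.45 (adjusted p = 0.372) without sham mice 1 and 2. The difference between these effects, 1.37 ± 0.41, passed (adjusted p = 0.0278), but not without sham back mice 1 and 2 (1.18, adjusted p = 0.0769). The highest HDM ear was that of mouse 8, and without it the ear difference was 0.52 (adjusted p = 0.141). In HDM mice, ear stood above back skin by 0.93 ± 0.29 (adjusted p = 0.0145).

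**Figure D2:**
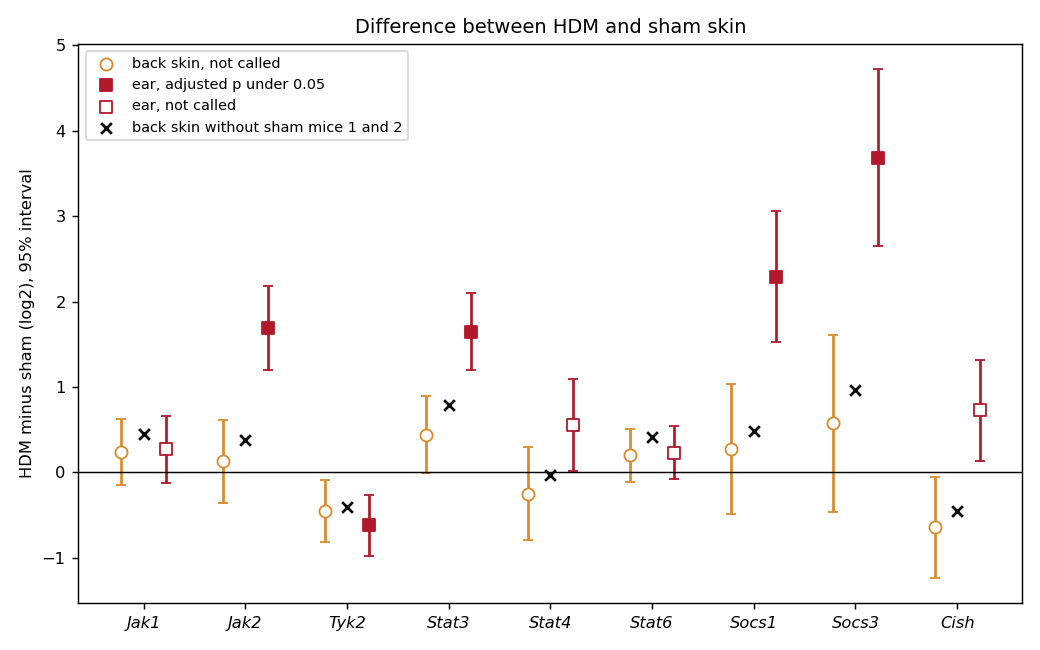
HDM minus sham in log2 units (vertical axis) for each gene (horizontal axis), with 95% intervals from the fit. Circles are back skin, squares are ear, filled where the adjusted p is under 0.05, and crosses are back skin without sham mice 1 and 2. In ear Jak2, Stat3, Socs1 and Socs3 are filled above 0 and Tyk2 below it, and in back skin no symbol is filled.

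The effect of HDM differed between ear and back skin for 5 of 9 genes, Jak2, Stat3, Socs1, Socs3 and Cish, each higher in ear, as for 6.77% of all rows. The test of this difference uses both sham groups, so it shares their arrays with the comparisons within a site. The same 5 genes were higher in HDM ear than in HDM back skin, as were 16.8% of all rows. Between sham ear and sham back skin 1 of 9 passed, against 29.7% of all rows. This was Stat4, which lay lower in sham ear (-0.88 ± 0.27, adjusted p = 0.0114) but under background on all 8 of those arrays.

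Over the 4 groups, the mean level of Jak2 ran from 13.69 in HDM ear through 12.44 in HDM back skin and 12.31 in sham back skin to 12.00 in sham ear. Only the step from HDM ear to HDM back skin passed (1.25 ± 0.24, adjusted p = 1.39e-04). Stat3 had the same order, at 14.38, 13.44, 13.00 and 12.73, and with all arrays only that step passed (0.94 ± 0.22, adjusted p = 0.00125). Without sham back mice 1 and 2, the step of Stat3 from HDM to sham back skin passed too (0.79, adjusted p = 0.00242), and sham ear lay above sham back skin by 0.08 (adjusted p = 0.793). Cish ran from 8.01 in HDM ear through 7.73 in sham back skin and 7.28 in sham ear to 7.09 in HDM back skin, with no step between neighbours passing (adjusted p = 0.502, 0.271 and 0.65).

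Within HDM ear the genes did not rank the mice alike. The 4 highest ears for Socs3, Socs1 and Jak2 were those of mice 1, 2, 5 and 7, for Jak2 at 14.24, 14.38, 14.07 and 14.44. For Stat3 the highest 4 were the same mice, but with a spread of 0.98 over the whole group. Tyk2 was lowest in mice 2, 1 and 5. Cish followed another order, with mouse 8 highest and mice 1 and 2 lowest, at 7.17 and 7.44. In the same ears the macrophage markers averaged 12.11, 12.32, 9.73, 10.91, 11.80, 10.13, 11.60 and 9.81 in mice 1 to 8, and the neutrophil markers 13.13, 13.51, 9.19, 10.68, 13.50, 10.11, 12.68 and 9.58. Mice 1, 2, 5 and 7 thus held the 4 highest levels of these markers too, and their part in the levels of the pathway genes was not tested.

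**Figure D3:**
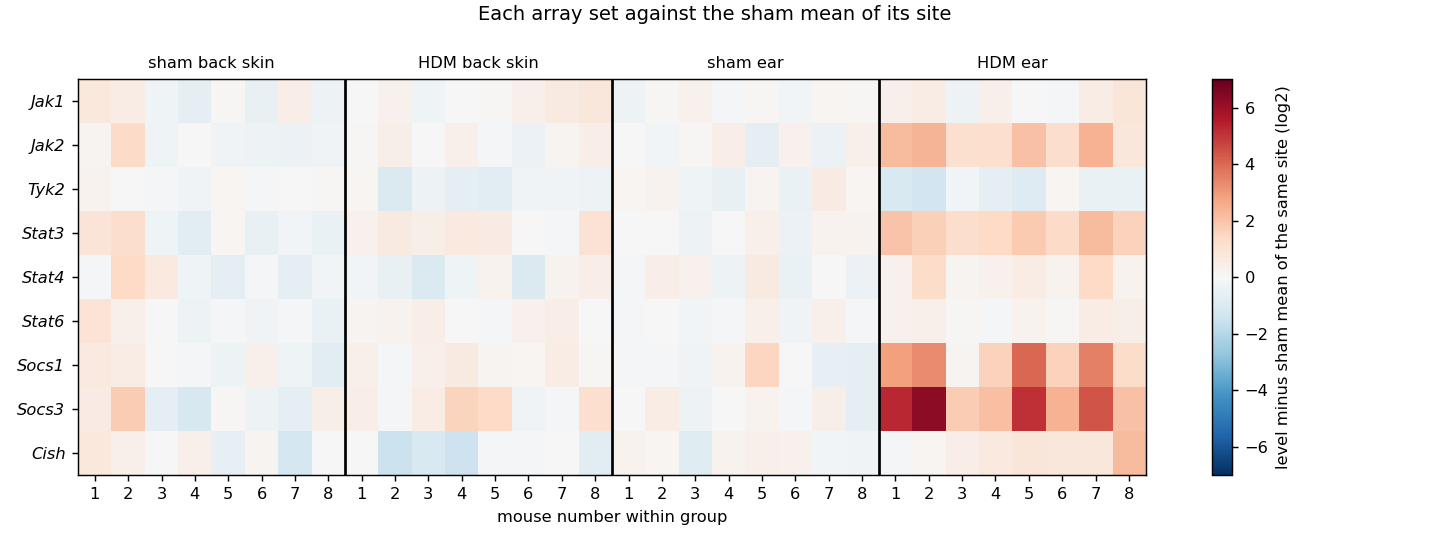
Level of each gene (rows) on each array (columns, by mouse number within a group) minus the sham mean of the same site, in log2 units, red for higher and blue for lower. Socs3 is reddest in HDM ears 1, 2, 5 and 7, and in sham back skin mice 1 and 2 are redder than the rest for most genes.

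The genes whose deviations from group means ran most like those of a member over the 32 arrays are given as a description. For Socs3 they were Slfn4, a Schlafen family gene, and the alarmin gene Il33 (Pearson r = 0.91 for either), with 67.7% of the spread of Socs3 coming from HDM ear. For Socs1 they were Hspe1, which encodes a mitochondrial chaperonin, and Tarm1, a receptor gene of myeloid cells (0.81 for either). For Jak2 they were Jaml, an adhesion molecule gene of leukocytes (0.85), and the acute phase gene Saa3 (0.81). For Stat3 they were Slc5a1, a glucose transporter gene (0.88), and Mal2 (0.82), and here 60.3% of the spread came from sham back skin. For Stat6 they were the epidermal lipid transporter gene Abca12 (0.81) and the glycolysis gene Pfkp (0.77), with 58.9% of the spread from that group. For Tyk2 they were the epidermal gene Kprp (0.78) and Dennd4c (0.75), for Jak1 Pip4k2a and Cd47 (0.77 for either), and for Cish Zfp81 (0.70) and Arpp19 (0.69). The arrays share the tissue, and arrays that stand apart in a group enter every such correlation.

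Genes around the pathway were grouped by role. Beside the counts of this and the following lists, 16.4% of all rows rose and 15.5% fell in ear. In back skin 6.18% of all rows rose and 8.56% fell. Of 8 other STAT and SOCS genes measured, 0 rose and 2 fell in ear, namely Stat5b by 0.49 ± 0.16 on the log2 scale (adjusted p = 0.0193) and Socs7, which fell by 0.65 ± 0.19 (adjusted p = 0.00886). In back skin 0 rose and 2 fell, Socs6, which fell by 0.94 ± 0.24 (adjusted p = 0.00689) and Socs2, like Cish a target of STAT5, which fell by 0.82 ± 0.23 (adjusted p = 0.0124). Without sham mice 1 and 2 the difference of Socs2 was -0.64 (adjusted p = 0.0709). The median difference of the group was 0.15 in ear and -0.33 in back skin.

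Of 16 other regulators, 5 rose and 2 fell in ear, where 16.4% and 15.5% of all rows did. In back skin 1 rose and 1 fell, near the shares of all rows (6.18% and 8.56%). The phosphatase gene Ptpn1, whose product acts on JAK2 and TYK2, rose by 0.91 ± 0.18 in ear and by 0.80 ± 0.18 in back skin (adjusted p = 1.36e-04 and 0.00188). Ptprc, which encodes the leukocyte phosphatase CD45, rose in ear by 1.98 ± 0.38, from 11.27 ± 0.47 to 13.24 ± 1.15 (SD, n = 8). Ptpn2, a phosphatase gene, rose in ear by 0.67 ± 0.20, and the adaptor gene Sh2b2, detected over background in 1 of 8 sham ears, by 1.44 ± 0.29. Pias3, which encodes an inhibitor of STAT3, fell in back skin by 0.76 ± 0.21 on the log2 scale.

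Of 37 cytokine receptor genes, 19 rose and 5 fell in ear, with a median of 0.63, and 4 rose and 6 fell in back skin, with a median of -0.01. Csf3r, the G-CSF receptor of neutrophils, was at least 43.9-fold higher in HDM than in sham ear, where it was below background on all 8 arrays, and rose in back skin by 4.38 ± 0.82 (adjusted p = 3.35e-04). Csf2rb, the shared chain of the GM-CSF, IL-3 and IL-5 receptors, rose in ear by 2.98 ± 0.43, and Il13ra2, a decoy receptor of IL-13, by 2.59 ± 0.35. Il4ra, the IL-4 receptor chain that docks STAT6, rose in back skin by 1.54 ± 0.40 (adjusted p = 0.00749), from 11.06 ± 0.53 to 12.60 ± 0.33 (SD, n = 8), and in ear by 3.98 ± 0.40 (adjusted p = 7.63e-09), from 9.23 ± 0.26 to 13.22 ± 1.55. In back skin Il20ra, a receptor chain for IL-19, IL-20 and IL-24, fell by 3.06 ± 0.29 on the log2 scale, and in ear it fell by 1.89 ± 0.29 (adjusted p = 7.37e-06). In back skin Il31ra, the receptor of the itch cytokine IL-31, fell by 1.59 ± 0.27. Of 8 HDM back arrays, 2 were above background for Il20ra and 5 for Il31ra. With each value below background set to the background, the back skin differences were -2.54 and -1.34.

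Of 31 ligand genes, 11 rose and 0 fell in ear, and 4 rose and 2 fell in back skin. Low signal limits this list: 13 ligands were below background on all 16 ear arrays and 17 on all back skin arrays. The rises include 1 such gene at each site, Il11 in ear and Ifnk in back skin. Il4, Il13 and Il31 were among the ligands below background at both sites, and did not pass. Against sham ears below background, Il19 was at least 22.7-fold higher in HDM ear, Il24 at least 3.40-fold, Osm, which encodes oncostatin M, at least 3.13-fold and Il6 at least 2.33-fold, with Il6 above background on 4 of 8 HDM ears. In back skin Il19 was at least 2.85-fold, Il24 at least 2.05-fold and Osm at least 1.42-fold higher, and Il20 at least 2.90-fold lower. When each value below background was set to the background, the back skin differences of Il19, Il24 and Osm did not pass (adjusted p = 0.196, 0.122 and 0.286), and 0 ligands were called higher in back skin. In ear 5 were then called higher and 19 lower, and the background itself averaged 5.20 in sham ear and 4.82 in HDM ear. With dim rows left out 4 rose in ear.

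Genes known as targets of the factors were listed by factor, although many answer to other signals too. Of 17 STAT3 target genes, 14 rose and 1 fell in ear, with a median of 1.79, and 5 rose and 2 fell in back skin, with a median of 0.58. Without sham mice 1 and 2, 8 rose and 1 fell in back skin. These mice stood out by their levels in these data, so that count is no separate support. With all mice, 8 also rose with array medians made equal, with dim rows left out or with array weights. Lcn2, which encodes an iron-sequestering antimicrobial protein, rose by 8.74 ± 0.74 in ear and by 4.74 ± 0.74 in back skin, and the acute phase gene Saa3 by 5.57 ± 0.89 and 6.76 ± 0.89. Only 1 of 8 sham ears was above background for Saa3, and the ear difference was 4.78 when each value below background was set to the background. Timp1, a metalloproteinase inhibitor gene, was at least 33.3-fold and the lectin gene Reg3g at least 7.76-fold higher in HDM ear. In back skin Birc5, a gene of dividing cells, rose by 1.53 ± 0.30 and Hif1a, the hypoxia factor gene, by 1.09 ± 0.25.

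Of 12 STAT6 target genes, 9 rose and 1 fell in ear, with a median of 2.24. Of these, Alox15, which was higher, and Fcer2a, which was lower, lay below background on all ear arrays. In back skin 2 rose and 2 fell, with a median of -0.12. The mannose receptor gene Mrc1 rose in ear by 3.31 ± 0.36, and Chil3, a chitinase-like gene of macrophages, was at least 24.2-fold and the chemokine gene Ccl17 at least 5.88-fold higher. Arg1, the arginase gene, rose by 4.10 ± 0.75 in ear and by 4.04 ± 0.75 in back skin. Chil3 also rose in back skin, by 3.66 ± 0.57, with 1 of 8 sham arrays above background. In back skin the chemokine gene Ccl22 fell by 2.42 ± 0.47 on the log2 scale, and it rose in ear by 3.20 ± 0.47 (adjusted p = 3.07e-06), a difference between the effects of 5.63 ± 0.66 (adjusted p = 2.10e-06). In back skin Retnla fell by 1.56 ± 0.35 on the log2 scale.

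The signed HDM effect was higher in ear for 6 of 12 STAT6 targets, 6 of 17 STAT3 targets and 12 of 37 receptors. The same held for 2 of 8 other STAT and SOCS genes, 2 of 16 other regulators and 2 of 31 ligands. Among all rows the share was 6.77%. These counts include genes that fell in back skin and did not pass in ear. Socs2 and Socs6 are such genes (-0.82 and -0.94 in back skin, 0.31 and 0.43 in ear). Il20 (-2.64 in back skin, -0.20 in ear) and Il31ra (-1.59 and -0.33) are as well. The signed effect was lower in ear for 1 ligand and for 0 genes of the other lists named here. When each value below background was set to the background, 11 STAT3 targets and 4 other regulators had the higher effect in ear. The lower effect there was then called for 16 ligands, 6 receptors and 2 STAT6 targets. Without sham back mice 1 and 2, 1 of 8 other STAT and SOCS genes had the higher effect in ear.

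**Figure D4:**
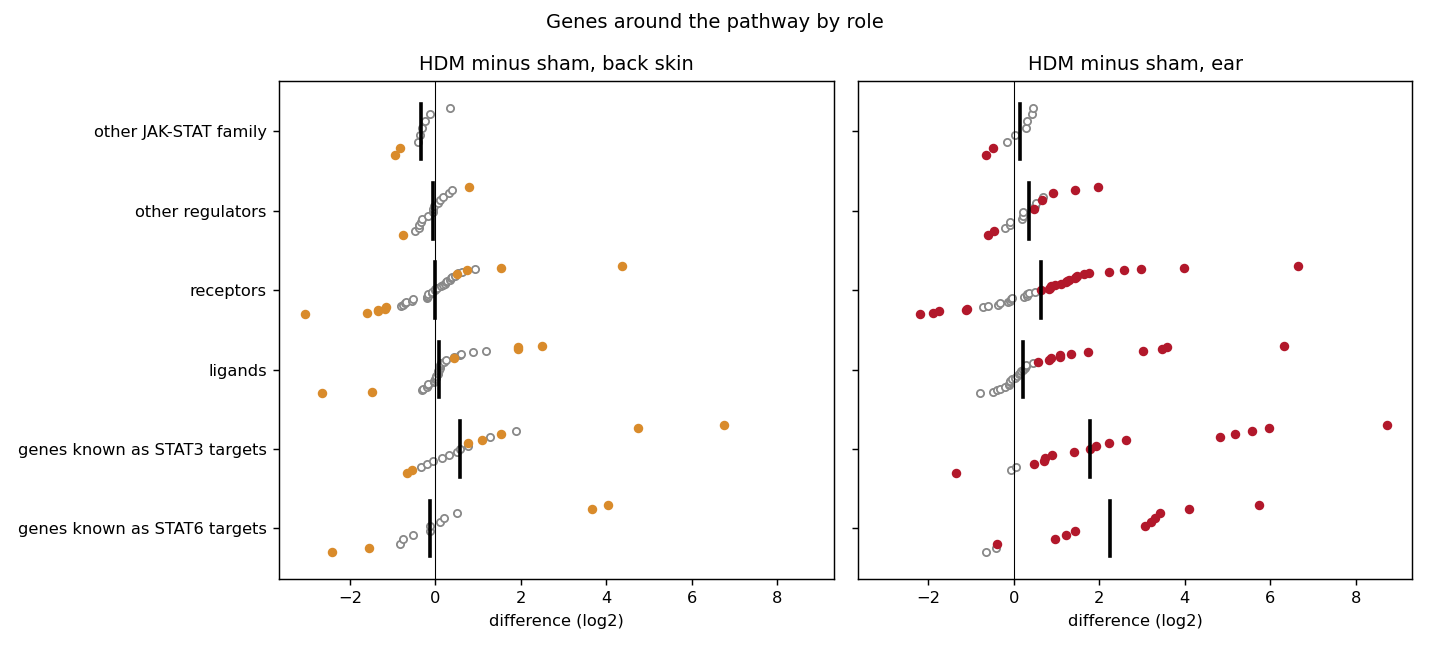
HDM minus sham in log2 units (horizontal axes) for the genes of each list (rows) in back skin and ear, filled where the adjusted p is under 0.05, with a black bar at the list median. In ear the medians of the STAT3 and STAT6 target lists lie at 1.79 and 2.24, and in back skin at 0.58 and -0.12.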

How the data were processed

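The deposited values are log2 expression levels from Mouse Clariom D arrays, 1 per sample, which the authors made by RMA. That method and the software, Transcriptome Analysis Console, are named in the submitters' processing notes, and versions and build were not given in the sources used here. RMA corrects background, quantile normalizes and summarises each probe set. Values ran from 1.71 to 19.93, and a later rescaling by the authors, which would make folds untrue, can be neither shown nor dismissed. Of 28846 rows, 6640 were array controls and were left out, leaving 22206, of which 19572 had a symbol. Array medians lay between 5.91 and 6.26, and an array correlated with the mean of its group at 0.975 to 0.994. The number of arrays limits the precision.

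Group means were fitted to the 32 arrays by limma (version 3.58.1, R 4.3.3, lmFit, eBayes, two-sided, 32.1 total degrees of freedom), with no covariate or block, and p-values were adjusted by Benjamini-Hochberg over all tested rows. The fit was tested on simulated data. A gene below the median of the negative controls on all 8 arrays of a group has only a bound, "at least N-fold", with that background in place of its value. The pairing of same-numbered back skin and ear arrays was checked by correlating deviations from group means. All members were described. Of each role list, up to 4 passing genes with the largest difference and at least 4 arrays above background in the higher group were named per site, plus, for each member, the 2 genes of most alike deviations. Outside this rule, Il4, Il13, Il31, Il11, Ifnk, Alox15 and Fcer2a were named after their values were seen. A further gene list is not reported here. Members and lists were chosen with earlier results of these data known. Alternatives covered the arrays fitted, array scaling, dim rows, values under background, the row per symbol, blocks, array weights, the variance prior and arrays left out.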

Additional observations from a re-analysis of the deposited data

Results flagged for a closer look

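Among the 36 combinations of a member and a group, 3 held an array far from the other 7 by Dixon's criterion at 95%, where chance gives about 1 in 20. These were Jak2 in sham back mouse 2, at 13.64, Socs1 in sham ear mouse 5, at 6.38, and Cish in HDM ear mouse 8, at 9.49. Without the array in question, the difference of Jak2 in back skin was 0.32 (adjusted p = 0.37), and in ear that of Socs1 was 2.51 and that of Cish 0.52.

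For 5 members the effect of HDM differed between ear and back skin by the test of the difference. The effect in ear exceeded that in back skin by 1.56 for Jak2, 1.21 for Stat3, 2.02 for Socs1, 3.10 for Socs3 and 1.37 for Cish.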

How the results depend on the processing

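Over 13 alternatives, the ear calls of Jak2, Tyk2, Stat3, Socs1 and Socs3 held in each. Not all of them could test these calls. The choice of row could not change a member, and leaving out sham back arrays reaches the ear comparison only through the shared spread. The calls of Jak2, Stat3, Socs1 and Socs3 on the difference between sites held in the 12 run for it. That difference needs all 4 groups, so fitting only the groups compared was not run for it. Of the alternatives, 3 that leave out single arrays were chosen after seeing the data. The setting without sham back mice 1 and 2 also rests on levels in these data. Of 571 recomputed member differences, 540 kept direction and side of the threshold, 12 passed newly, 2 were lost and 17 changed sign. Cish in ear lay at the threshold, with an adjusted p between 0.0258 and 0.141. In back skin 0 members passed, 1 with back skin arrays alone (Tyk2), 2 without sham mice 1 and 2 (Stat3, Stat6) and 1 without sham mouse 2 (Stat3). Between sham tissues 1 member passed, 2 with sham arrays alone, and 0 with dim rows left out or without sham back mice 1 and 2. When each value below background was set to the background, rows called went from 7076 to 15862 in ear, from 2251 to 12103 for the difference between sites and from 6593 to 15246 between sham tissues. Rows below background then carry the background of their array, which averaged 5.20 in sham ear and 4.72 to 4.84 in the other groups. Under that setting Stat4 turned to -0.35 in ear, -0.34 for the difference between sites and 0.31 between sham tissues. The ear and sham tissue values then passed with reversed sign (limma adjusted p = 0.00886 and 0.0214). The other sign changes were of values that did not pass. For the difference between sites, Jak1 and Stat6 turned from 0.03 to -0.09 and -0.09 with array medians made equal, to -0.09 and -0.12 with array weights, to -0.18 and -0.19 without sham back mice 1 and 2, and with single arrays left out ranged from -0.05 to 0.04 and from -0.02 to 0.08. Between sham tissues Stat6 turned to 0.08 with array medians made equal, 0.06 with array weights, 0.17 without sham back mice 1 and 2, and ranged from -0.10 to 0.01 with single arrays left out, and Stat3 to 0.08 without mice 1 and 2. Making array medians equal moved the median of all rows in back skin from 0.01 to 0.13. Same-numbered back skin and ear arrays correlated between -0.11 and 0.14 in their deviations. Such values between different tissues cannot show whether a number stands for the same animal at both sites. With the replicate block by mouse number or by animal, 5 members passed in ear and 0 in back skin, and Socs3 in ear stayed at 3.68 (limma adjusted p = 1.31e-06 and 1.51e-06). Each member has 1 row, so the choice of row changed nothing for members.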
